A study of Danio rerio with 6 samples.

Results

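Cells sense oxygen largely through an enzyme loop, and its genes are described here in zebrafish larvae kept with an inhibitor of Notch signalling. The 10 genes are egln1a, egln1b, egln2 and egln3, which encode prolyl hydroxylases of the hypoxia-inducible factors (HIF), vhl, which encodes the subunit of a ubiquitin ligase that binds hydroxylated HIF, and the HIF alpha subunit genes hif1aa, hif1ab, hif1al, epas1a and epas1b. They were picked by symbol from a table of 25920 genes; all 10 were present, and all 10 were among the 22092 genes that passed the filter on low counts. They were chosen with the difference between the groups already known, so their own differences below are a description of these libraries and not a test.

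RNA was sequenced at 96 hours post fertilization (hpf) from fish that had been in 100 µM DAPT since 60 hpf and from fish kept over the same hours in the solvent DMSO, with 3 libraries per group. DAPT blocks gamma-secretase, the protease that frees the active part of Notch receptors. All fish of both groups carried Tg(myl7:mCherry), in which the promoter of a heart muscle myosin light chain gene drives a red fluorescent protein, and the protocol states an extraction from hearts, whereas the design text speaks of embryos. The labels do not tie the libraries to separate clutches or dissections, so every error given here rests on scatter among libraries and could be technical in origin. SDs are over the 3 libraries of a group, while standard errors of fold changes also draw on the variation of all genes.

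With oxygen present, prolyl hydroxylases mark HIF alpha subunits, and the VHL ligase then sends the marked protein to the proteasome. When oxygen is short the alpha subunit persists, pairs with a beta subunit (ARNT) and switches on genes for sugar breakdown, vessel growth and collagen modification. Some of the sensors are themselves HIF targets, egln3 above all, so that the loop holds a negative feedback. Control of the alpha subunits acts mainly on the protein, which was not measured here.

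Libraries held 21439371 to 21808613 counts with DAPT and 20542549 to 20656633 with DMSO. Levels are given as TPM (the authors' length-scaled share of each library's transcripts), and differences as log2 fold changes ± standard error, DAPT minus DMSO, from edgeR's quasi-likelihood fit of all genes to the counts with TMM scaling. A gene is said to pass when its p-value, adjusted over all genes by Benjamini and Hochberg, is under 0.05; 46.6% of all genes did, 22.4% higher and 24.3% lower with DAPT. The higher ones made up 48.0% of calls, a share that became 32.5% when libraries were scaled by their totals only and 24.9% on either TPM scale. Transcripts known from many tissues were present in every library, and none of the 11 marker lists had a gene at 0 counts. Heart muscle markers summed to 7872 to 8240 TPM with DAPT against 4461 to 5422 TPM with DMSO (7 of 8 higher), but skeletal muscle markers reached 9540.0 to 10954 TPM against 8352 to 10808 TPM (4 of 9 higher) and epidermal markers 20715 to 21358 TPM against 22494 to 25089 TPM (2 of 6 higher, 2 lower). Endothelial markers summed to 249 to 277 TPM with DAPT against 187 to 216 TPM (5 of 7 higher), red cell markers to 20022 to 22029 TPM against 12656 to 15014 TPM (5 of 7 higher, 2 lower), and gut markers to 1041 to 1170.2 TPM against 1134 to 1225 TPM (4 of 6 higher, 2 lower). Lower sums with DAPT were found for liver markers (2678 to 2794 TPM against 5925 to 6676 TPM, 7 of 8 lower), exocrine pancreas markers (968 to 1105 TPM against 2646 to 3218 TPM, 7 of 7 lower), retina markers (724 to 759 TPM against 1679 to 2696 TPM, 7 of 7 lower), neural markers (467 to 488 TPM against 656 to 843 TPM, 6 of 8 lower) and macrophage and neutrophil markers (90.2 to 102 TPM against 145 to 157 TPM, 3 of 6 lower). The values below are therefore those of mixed tissue, in which fewer cells of a type and less RNA per cell cannot be told apart, and the part of these shifts in each result was not tested.

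All 4 prolyl hydroxylase genes and vhl were higher with DAPT, whereas the alpha subunit genes hif1aa and epas1a did not pass, hif1ab and hif1al were modestly higher and epas1b was lower. In all, 7 of the 10 genes passed as higher and 1 as lower, beside 46.6% of all genes in either direction; because the genes were picked with this contrast in view, nothing is read from that count. On the TPM scale 8 of the 10 genes had no overlap between DAPT and DMSO libraries, 6 higher and 2 lower with DAPT, beside 57.4% of all genes, 15.1% higher and 42.3% lower. The median log2 fold change was 0.56 over the 10 genes and -0.0043 over all genes tested.

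The hydroxylase gene egln3, whose orthologue in mammals is among the genes most readily induced by HIF, had 59.0, 65.9 and 60.9 TPM in the 3 DAPT libraries, against 9.23, 7.65 and 7.15 TPM in the 3 DMSO libraries. Every DAPT value lay more than 6-fold above every DMSO value. It averaged 62.0 ± 3.55 TPM with DAPT and 8.01 ± 1.09 TPM with DMSO (SD, n = 3 each), a ratio of 7.73 and a log2 fold change of 3.10 ± 0.10, and 99.96% of the genes tested had a smaller or more negative fold change. The 5 genes closest to it in pattern, by Euclidean distance between log2 CPM (counts per unit of TMM-scaled library size) centred on each gene's mean over the 6 libraries, were abcc12, mmp13a, ugt1a1, abcc2 and ugdh, at distances of 0.311 to 0.653 among 12066 genes with a mean of at least 10 CPM. They encode ABC transporters, a collagenase, a glucuronosyltransferase and the enzyme that makes its cosubstrate, and none of them is on the lists of hypoxia-induced genes used below. With 2 groups of 3 libraries this likeness mostly restates a similar difference between the groups.

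The gene egln2, known in mammals for a hydroxylase found mainly in the nucleus, had 14.6, 16.5 and 14.6 TPM with DAPT, against 5.55, 4.68 and 4.98 TPM with DMSO, a log2 fold change of 1.74 ± 0.09. The groups were far apart, and DAPT replicate 2 was highest for egln2 as it was for egln3. Its count was not whole in 1 library, which was taken to mean that a few reads are shared with a similar gene. The duplicate genes egln1a and egln1b correspond to the hydroxylase that, in mammals, sets HIF levels in most tissues. For egln1b, the more abundant copy, values were 32.9, 32.4 and 35.0 TPM with DAPT against 19.5, 19.2 and 20.9 TPM with DMSO (0.91 ± 0.06). For egln1a they were 5.06, 4.97 and 5.66 TPM with DAPT against 2.54, 2.57 and 2.78 TPM with DMSO (1.13 ± 0.14). These low levels of egln1a rest on 102 to 115 counts per DAPT library and 48 to 53 per DMSO library. The 95% confidence intervals of the copies' log2 fold changes, 0.84 to 1.43 for egln1a and 0.77 to 1.04 for egln1b, overlap.

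The ligase subunit gene vhl had 17.3, 19.4 and 16.1 TPM with DAPT, against 11.4, 11.2 and 11.3 TPM with DMSO, a log2 fold change of 0.80 ± 0.11. Its DMSO values were close together, and the lowest DAPT value stood well above them. These levels rest on 231 to 278 counts per DAPT library and 145 to 150 per DMSO library.

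**Figure D1:**
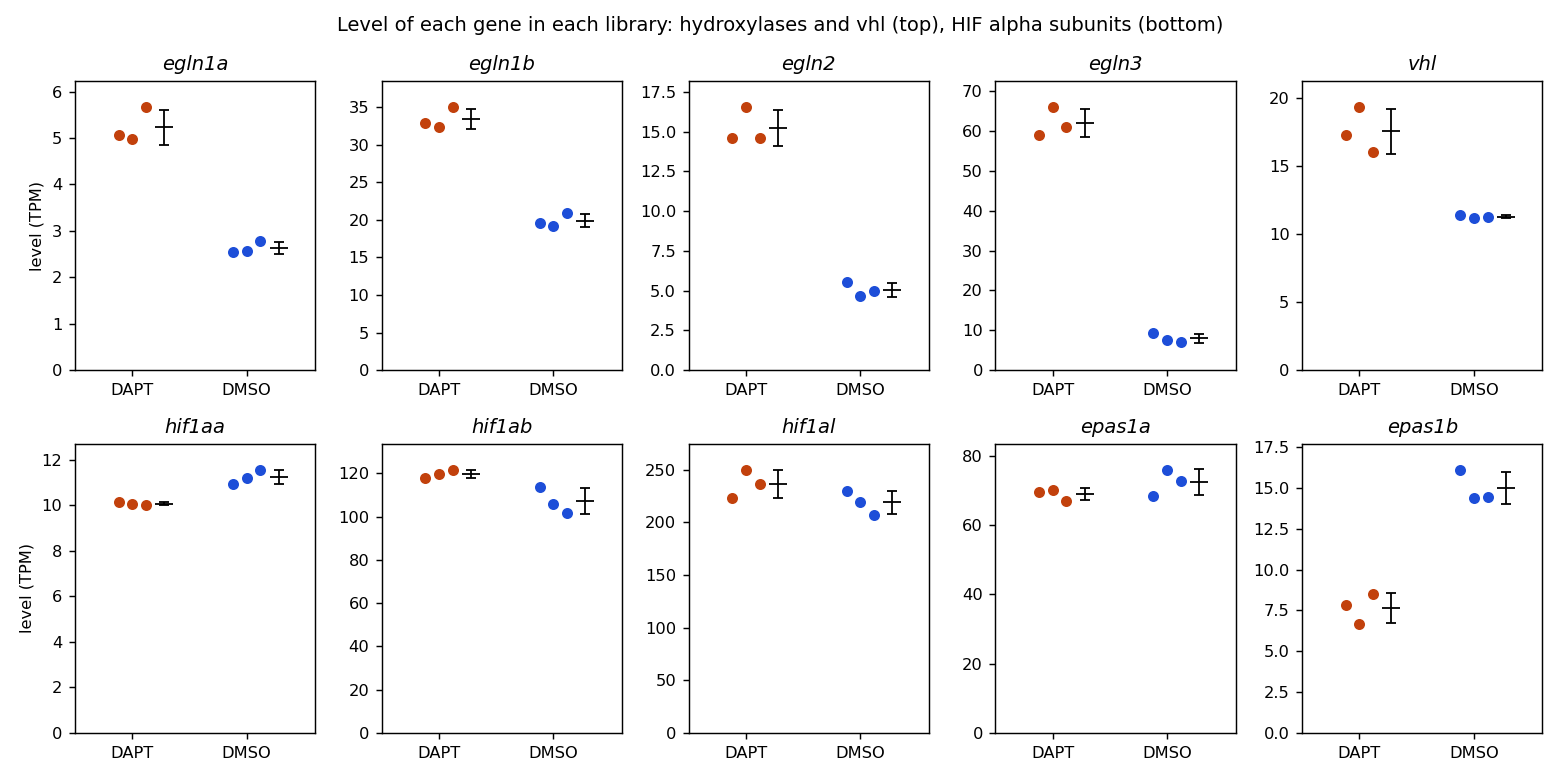
Level in TPM (y axis, from 0, a scale of its own for each gene) of the 10 genes in each library, DAPT (orange) left and DMSO (blue) right, with black bars for mean ± SD over 3 libraries. The 4 hydroxylase genes and vhl (top row) stand apart between the groups with DAPT higher, and among the alpha subunit genes (bottom row) epas1b stands lower with DAPT at 6.64 to 8.48 TPM against 14.4 to 16.1 TPM.

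Apart from epas1b, the HIF alpha genes differed less. The most abundant was hif1al, listed by RefSeq with the synonym Hif-3alpha, with 223, 249.9 and 236 TPM with DAPT against 230.0, 219.7 and 207 TPM with DMSO. Its TPM values overlapped between the groups, while on the TMM scale it was 0.28 ± 0.07 higher. The duplicates of the HIF-1 alpha gene were unequal in level. The abundant copy, hif1ab, had 118, 119.6 and 122 TPM with DAPT against 114, 106 and 102 TPM with DMSO, with no overlap and a log2 fold change of 0.31 ± 0.07. The minor copy, hif1aa, had 10.1, 10.0 and 10.0 TPM with DAPT against 10.9, 11.2 and 11.5 TPM with DMSO. Its TPM values were thus all slightly lower with DAPT, but its log2 fold change on the TMM scale was 0.00 with a 95% confidence interval of -0.16 to 0.17. How large the differences of the alpha subunits appear depends on the scaling, since the median of all genes lay 0.15 lower on the log2(TPM + 0.1) scale than with TMM. On that scale hif1ab was 0.16 ± 0.06 higher, and hif1al, at 0.11 ± 0.06, did not pass. Relative to the median of all genes the log2(TPM + 0.1) values were 0.32 for hif1ab, 0.27 for hif1al and 0.00 for hif1aa.

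The HIF-2 alpha duplicates epas1a and epas1b, whose product in mammals is known for control of erythropoietin and of vessel cells, differed from each other. The abundant copy, epas1a, had 69.6, 70.2 and 67.1 TPM with DAPT, against 68.6, 75.9 and 72.9 TPM with DMSO. The groups overlapped, and the log2 fold change of 0.08 ± 0.06 did not pass, with a 95% confidence interval of -0.04 to 0.21. In contrast epas1b had 7.82, 6.64 and 8.48 TPM with DAPT, against 16.1, 14.4 and 14.4 TPM with DMSO, a log2 fold change of -0.82 ± 0.09. It was the only gene of the 10 to pass as lower. The epas1b level per 100 TPM of epas1a was 9.45 to 12.6 with DAPT and 19.0 to 23.5 with DMSO. The genes closest to epas1b in pattern were znf367, chaf1b, sp8a, kif20a and aebp1, at distances of 0.148 to 0.183. As for egln3, this likeness mostly restates a similar difference between the groups. Neural, retina, liver, exocrine pancreas, and macrophage and neutrophil markers had lower sums with DAPT, as given above. Of the 6 macrophage and neutrophil markers, 3 passed as lower. Heart muscle, endothelial and red cell markers had higher sums with DAPT, though 2 of the 7 red cell markers were lower. A link of epas1b to these markers, or to the genes close to it in pattern, was not tested. Another gene named for a HIF alpha, hif1al2, which was looked at after its values were seen, had 12.8, 10.6 and 12.7 TPM with DAPT against 10.9, 13.8 and 11.4 TPM with DMSO (0.17 ± 0.10, adjusted p = 0.203 by edgeR's quasi-likelihood test).

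**Figure D2:**
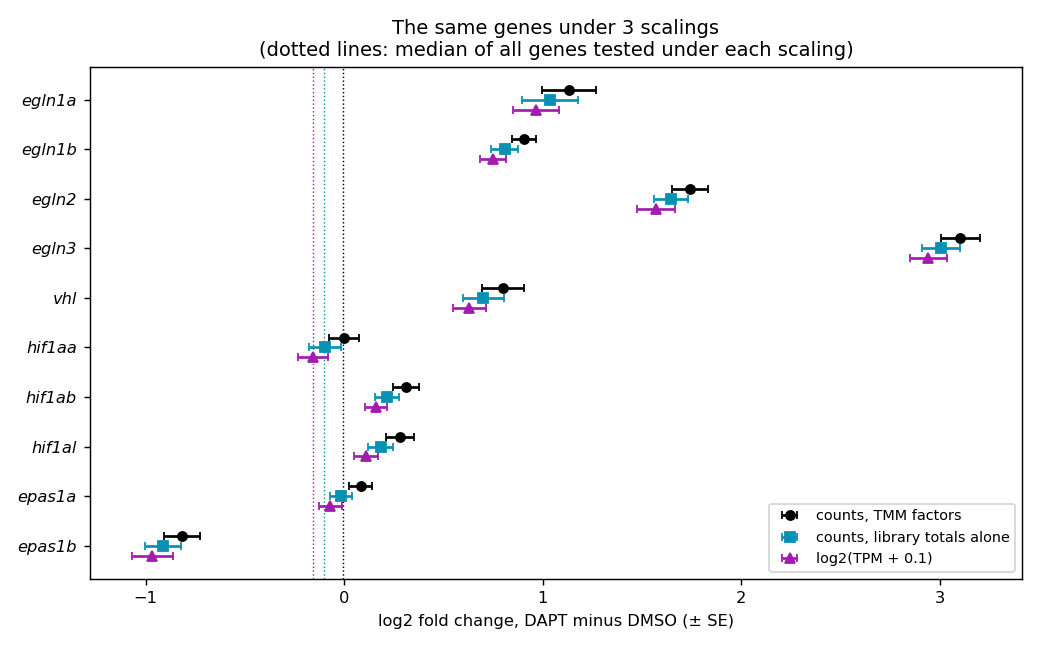
Log2 fold change, DAPT minus DMSO, of the 10 genes (x axis, ± SE) with TMM factors, with library totals alone and on log2(TPM + 0.1), with dotted lines at the median of all genes under each scaling. The hydroxylase genes, vhl and epas1b keep their side under all 3, while hif1aa and epas1a lie close to 0 and move across it.

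Ordered by level with DAPT, the genes ran hif1al, hif1ab, epas1a, egln3, egln1b, vhl, egln2, hif1aa, epas1b and egln1a. Ranges of neighbours overlapped only between vhl and egln2. Among the DMSO libraries the order was hif1al, hif1ab, epas1a, egln1b, epas1b, vhl, hif1aa, egln3, egln2 and egln1a, and only vhl and hif1aa overlapped. The hydroxylase gene egln3 thus had rank 4 with DAPT and rank 8 with DMSO.

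Set against the alpha subunits, the hydroxylase genes and vhl took a larger place in the DAPT libraries. The 4 hydroxylase genes and vhl summed to 129, 139 and 132 TPM with DAPT, against 48.3, 45.3 and 47.1 TPM with DMSO. The 5 alpha subunit genes summed to 429, 456 and 443 TPM with DAPT, against 439, 427 and 408 TPM with DMSO. Their groups thus overlapped in TPM. In TMM-scaled CPM the same sums were 953, 1026 and 961 with DAPT against 882, 847 and 787 with DMSO, without overlap. Per 100 TPM of alpha subunits there were 30.1 ± 0.334 TPM of hydroxylases and vhl with DAPT and 11.0 ± 0.471 TPM with DMSO (SD, n = 3 each). Without egln3 the figures were 16.1 ± 0.146 and 9.16 ± 0.542 TPM, and the groups still did not overlap. The hydroxylase pool also changed in make-up. Of its TPM, egln3 supplied 53.5 ± 1.38% with DAPT and 22.5 ± 2.52% with DMSO, and egln1b 28.9 ± 1.64% with DAPT and 55.9 ± 2.67% with DMSO. The share of egln2 was 13.1 ± 0.628% with DAPT and 14.2 ± 0.718% with DMSO, with overlapping values, and that of egln1a 4.52 ± 0.363% and 7.40 ± 0.457%. Within the alpha subunits hif1al held 53.4 ± 1.31% with DAPT and 51.5 ± 0.760% with DMSO.

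**Figure D3:**
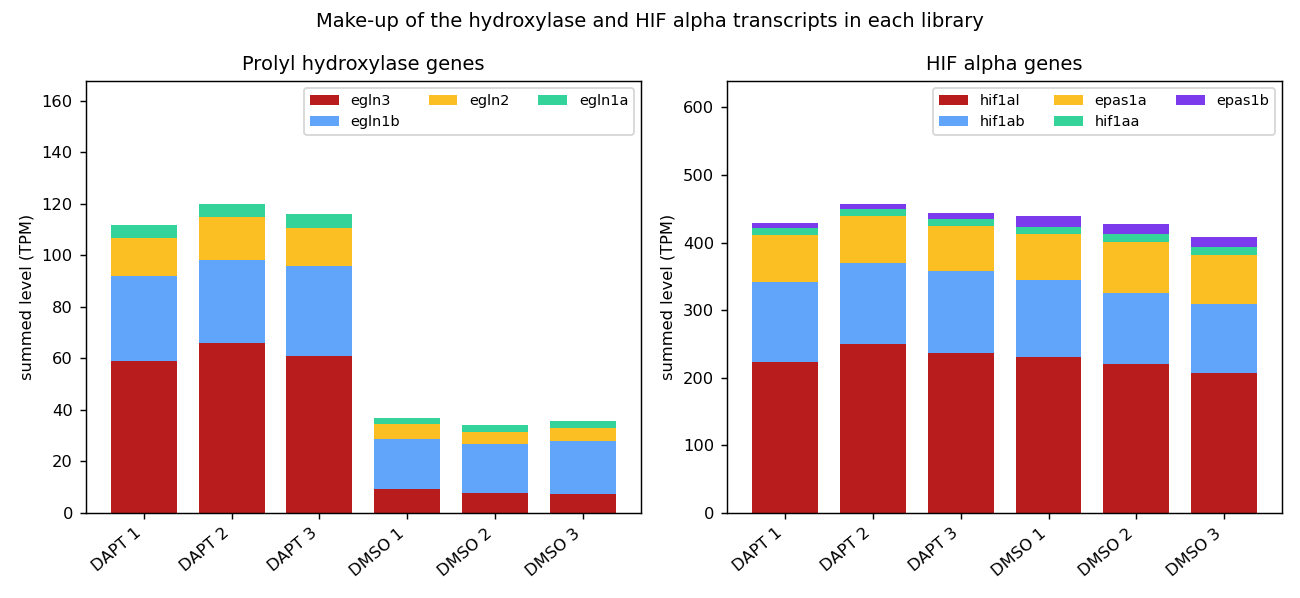
Stacked TPM of the 4 prolyl hydroxylase genes (left) and the 5 HIF alpha genes (right) in each library, DAPT 1 to 3 then DMSO 1 to 3. The hydroxylase total is 112 to 119.8 TPM with DAPT against 34.1 to 36.9 TPM with DMSO, most of the gap being egln3 (red). The alpha totals overlap in TPM, though not in TMM-scaled CPM.

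The other proteins that act directly on HIF were taken from lists that do not share genes with the 10. Like the lists further below, these were written with earlier results of these data known. Their counts are therefore a description and not a test. The asparaginyl hydroxylase gene hif1an, whose product (FIH) blocks the transactivating end of HIF alpha when oxygen is present, had 39.9, 42.9 and 41.9 TPM with DAPT, against 21.2, 22.7 and 21.6 TPM with DMSO. It rose by 1.09 ± 0.06 (adjusted p = 9.33e-08, edgeR). The coactivator inhibitor gene cited2, itself a known HIF target in mammals, whose product competes with HIF for p300, averaged 29.6 ± 2.52 TPM with DAPT and 10.2 ± 0.978 TPM with DMSO and rose by 1.69 ± 0.09 (adjusted p = 6.78e-08). Its relative cited4b rose by 0.66 ± 0.07, while cited4a at 0.08 ± 0.05 did not pass. The beta subunit genes arnt and arnt2 rose by 0.30 ± 0.07 and 0.20 ± 0.07. The call of arnt was lost with library totals alone (0.20, adjusted p = 0.0533) and on the TPM scales, with adjusted p of 0.00328 to 0.0993 over its alternatives. That of arnt2 (adjusted p = 0.0401, with 0.00808 to 0.715 over its alternatives) was lost in 11 of 14 alternatives, among them those without DAPT replicate 1, 2 or 3 (0.19, 0.21 and 0.20) and without DMSO replicate 1 or 2 (0.20 and 0.14). No call was made for the coactivator genes ep300a (0.06), ep300b (-0.11), crebbpa (-0.07) and crebbpb (0.12), or for the transmembrane hydroxylase genes p4htma (0.01) and p4htmb (-0.06). In this list of 12 genes 5 rose and 7 did not pass, beside 22.4% of all genes higher and 24.3% lower. The list's median log2 fold change was 0.10. With TMM factors and the default filter, and by DESeq2, 0 genes of the list fell, at an unadjusted p under 0.05 either. With the filter of at least 5 CPM in 3 libraries 4 rose and 1 fell, ep300b. With library totals alone and on each TPM scale 3 rose and 2 fell, ep300b and crebbpa.

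Of the other parts of the VHL ligase, cul2, the scaffold, rose by 0.19 ± 0.06 (adjusted p = 0.0219, with 0.00367 to 0.632 over its alternatives). That call was lost without DAPT replicate 1 or 3 (0.19 and 0.18), without DMSO replicate 1 or 2 (0.16 and 0.17), with library totals alone (0.091) and on the TPM scales. No call was made for the adaptor genes elob (0.07), eloca (0.04) and elocb (-0.0036), the ring protein gene rbx1 (0.17) or the related gene vhll (0.08). The value for vhll is imprecise, with 26 to 44 counts per library and a 95% confidence interval of -0.44 to 0.61. Of 6 genes 1 rose and 5 did not pass, beside 22.4% of all genes higher and 24.3% lower. On the TPM scales 0 rose and elocb fell. Among 14 genes for other factors that act on HIF alpha or hydroxylase stability, 4 rose and 3 fell, beside those shares of all genes. Their median log2 fold change was -0.02. The chaperone genes hsp90aa1.2 and hsp90ab1, whose products bind HIF alpha, rose by 1.87 ± 0.14 and 0.27 ± 0.07. In all 6 libraries the count of hsp90aa1.2 was not whole, which was taken to mean shared reads. The scaffold gene rack1 rose by 0.28 ± 0.06 and wsb1, a ligase adaptor, by 0.25 ± 0.07. The gene siah2l, related to mammalian ligases that remove prolyl hydroxylases in low oxygen, fell by 0.38 on the log2 scale (SE 0.07), os9 by 0.39 (SE 0.06) and senp1, which encodes a SUMO protease, by 0.38 (SE 0.07). On the TPM scales rack1, hsp90ab1 and wsb1 did not pass, and 1 gene rose and 6 fell; with library totals alone 3 rose and 5 fell.

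**Figure D4:**
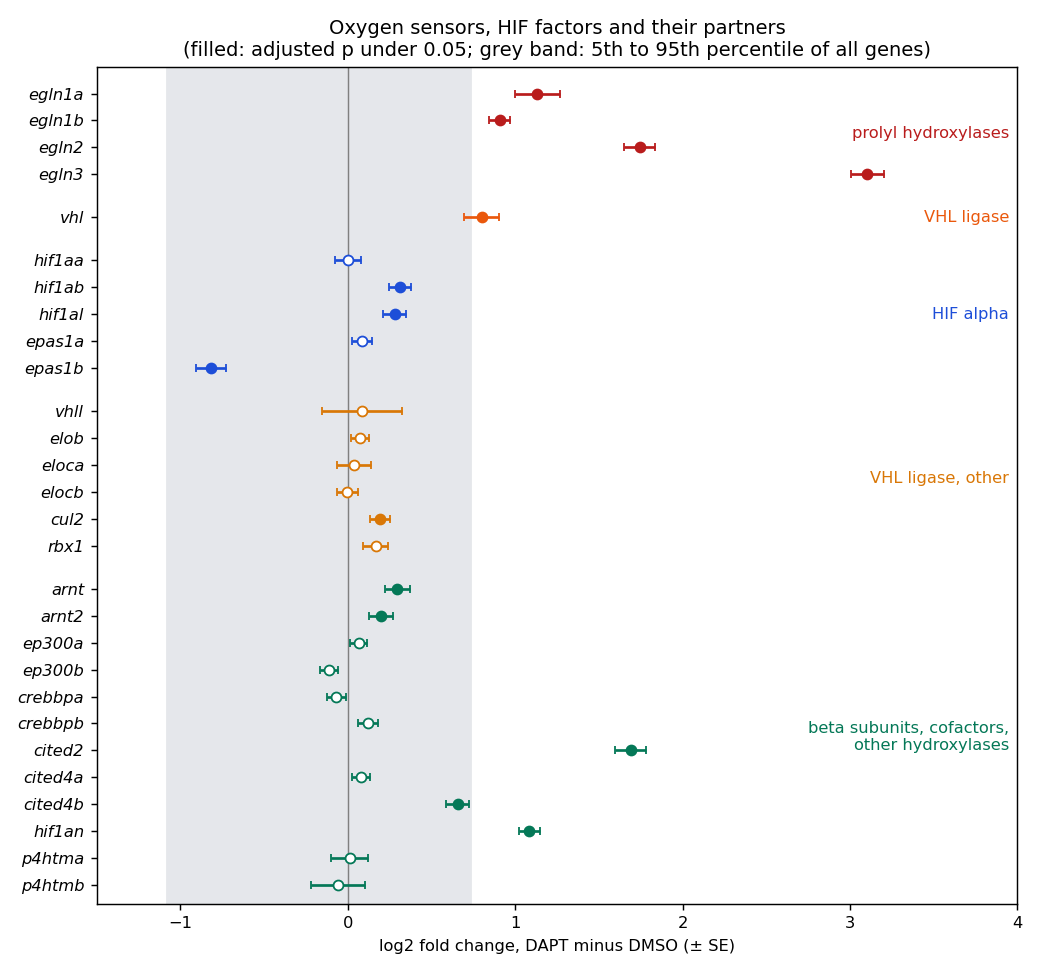
Log2 fold change, DAPT minus DMSO (x axis, ± SE), of the 10 genes and their direct partners, grouped by role, with filled points for an adjusted p under 0.05. The points furthest right are egln3 at 3.10, egln2 at 1.74, cited2 at 1.69, egln1a at 1.13 and hif1an at 1.09, and the point furthest left is epas1b at -0.82.

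The listed genes known to be switched on through HIF in low oxygen were mostly higher with DAPT. Of 41 such genes outside sugar metabolism 29 rose, 5 fell and 7 did not pass, beside 22.4% of all genes higher and 24.3% lower. Their median log2 fold change was 0.54. Because the list was written with earlier results of these data known, this count is a description and not a test. The 7 that did not pass were bnip3 (0.24 ± 0.10), bnip3la (0.18 ± 0.08), lepa, stc2a, insig2, loxl2b and p4ha1a. The collagen prolyl hydroxylase gene p4ha1b averaged 74.5 ± 1.87 TPM with DAPT and 15.5 ± 1.41 TPM with DMSO and rose by 2.40 ± 0.07 (adjusted p = 2.24e-10, edgeR). The gene ero1a, for an oxidase of disulfide bond formation, rose by 2.28 ± 0.10, the mitophagy receptor gene bnip3lb by 1.28 ± 0.07 and the collagen lysyl hydroxylase gene plod1a by 1.204 ± 0.06. Those that fell included cox4i2, which encodes a subunit of cytochrome oxidase, at -0.82 ± 0.09, the haem oxygenase gene hmox1a at -0.51 ± 0.11, the lysyl oxidase gene loxa at -0.58 ± 0.09 and the carbonic anhydrase gene ca9, near 1.14 ± 0.243 TPM with DAPT and 2.34 ± 0.542 TPM with DMSO.

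Genes of glucose uptake and glycolysis had 23 of 35 higher and 5 lower, beside 22.4% of all genes higher and 24.3% lower. Their median log2 fold change was 0.32. The regulator gene pfkfb3 rose by 1.45 ± 0.08, the pyruvate dehydrogenase kinase gene pdk2a by 1.05 ± 0.08, the glucose transporter gene slc2a1b by 0.98 ± 0.08 and the lactate dehydrogenase gene ldha by 0.81 ± 0.06. Of the related kinase genes, pdk2b rose by 1.06 ± 0.16, while pdk1, at -0.07 ± 0.06, did not pass. On the TPM scales 17 of the 35 rose and 8 fell. Among the 5 that fell were slc2a1a by 1.02 and slc2a3a by 0.31 on the log2 scale, both related to slc2a1b. Also among them were eno1b and aldoca, which fell by 1.31 and 0.87. Neural marker sums, as given above, were lower with DAPT, as were those of retina, liver, exocrine pancreas, and macrophage and neutrophil markers. Heart muscle, endothelial and red cell marker sums were higher with DAPT. A link of these shifts to the fallen glucose genes was not tested.

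Prolyl hydroxylases use 2-oxoglutarate as cosubstrate and iron as cofactor, and release succinate. Of 18 enzyme genes that make or use 2-oxoglutarate, succinate or fumarate 12 rose, beside 22.4% of all genes higher and 24.3% lower. Their median log2 fold change was 0.21, and 0 fell by edgeR or DESeq2, at an unadjusted p under 0.05 either. The count of 12 rested on the scaling and on single libraries. With library totals alone 5 rose, on each TPM scale 2 rose and 2 fell, and 7 rose without DAPT replicate 3. The changes of the 4 with the smallest adjusted p were 0.45 ± 0.06 for sdhc, 0.32 ± 0.06 for suclg2, 0.31 ± 0.06 for suclg1 and 0.34 ± 0.07 for dlst, and those of suclg2 and suclg1 did not pass on the TPM scales. Of 7 genes of iron handling and erythropoietin reception 4 fell and 1 rose (median -0.36), beside 24.3% of all genes lower and 22.4% higher. The erythropoietin receptor gene epor averaged 4.53 ± 0.630 TPM with DAPT and 11.0 ± 0.645 TPM with DMSO and changed by -1.13 ± 0.12. The transferrin gene tfa changed by -1.19 ± 0.08, the transferrin receptor gene tfr1a, needed by red cell precursors, by -0.67 ± 0.07 and the iron exporter gene slc40a1 by -0.36 ± 0.05. The other receptor gene, tfr1b, rose by 0.25 ± 0.07, a call lost without DMSO replicate 1 (0.19, adjusted p = 0.0512, with 0.00097 to 0.319 over its alternatives), with library totals alone and on the TPM scales. The gene tfa is also on the liver marker list, where 7 of 8 genes, tfa included, were lower. The part of liver tissue in its fall was not tested. Of the red cell markers, gata1a (-1.12 ± 0.09) and slc4a1a (-1.26 ± 0.07) were lower, while the other 5 were higher. A link of epor and tfr1a to these markers was not tested. The counts of tfr1a were not whole in 2 libraries.

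**Figure D5:**
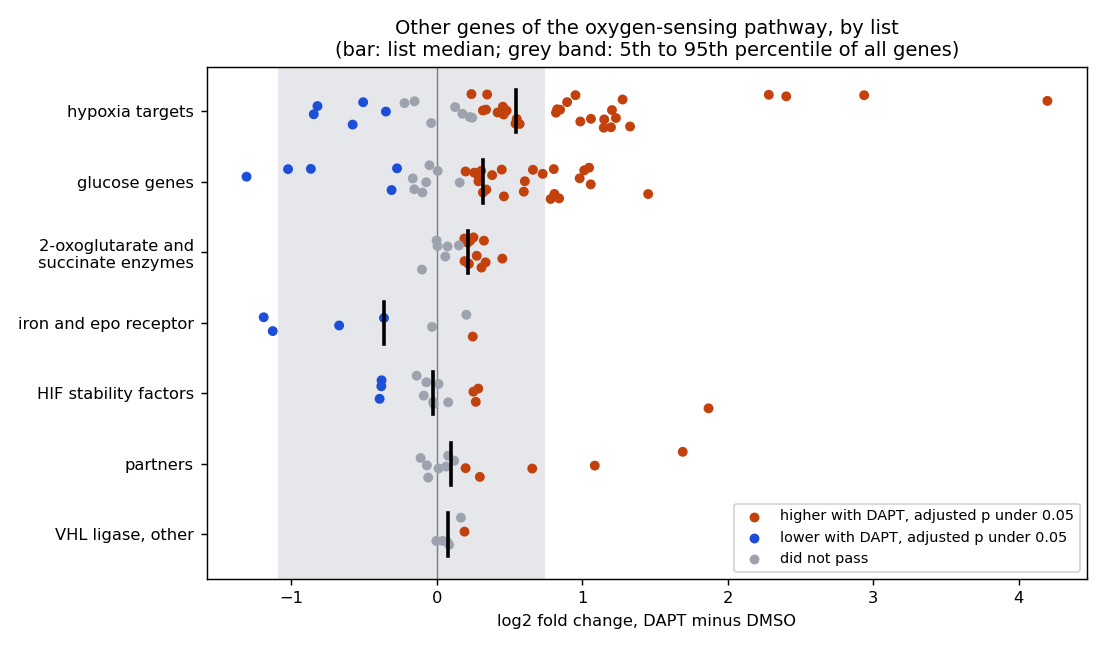
Log2 fold change, DAPT minus DMSO (x axis), of each gene in the 7 lists of pathway genes, coloured by whether it passed as higher (orange), passed as lower (blue) or did not pass (grey), with a black bar at the list median. Medians run from -0.36 for the iron and erythropoietin receptor genes to 0.54 for the hypoxia targets.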

How the data were processed

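The deposited table gives read counts, FPKM and TPM per gene and library, per the file headers. Between 15.2 and 16% of the deposited counts in a library are not whole, so they were treated as estimated counts and rounded. TPM and FPKM were calculated by the authors; FPKM and the authors' group means were not analysed here. STAR 2.7.1a, featureCounts 1.6.0, edgeR and build GRCz11 are named in the submitters' processing notes, without roles; annotation, strand setting and counting rules are not given in the sources used here.

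Counts were fitted in edgeR 4.0.16 (R 4.3.3): filterByExpr, TMM factors and a quasi-likelihood F test between the groups (4 residual degrees of freedom) with Benjamini-Hochberg adjustment over 22092 genes, threshold 0.05. The test and the confidence intervals use these residual degrees of freedom together with prior ones estimated over all genes. The standard error is the fold change divided by the square root of F. The test was checked on simulated counts in which few genes changed, with rises and falls balanced. That check does not bear on the choice of scaling. Alternatives were RLE factors, library totals, no filter, at least 5 CPM in 3 libraries, DESeq2 1.42.0, limma 3.58.1 on log2(TPM + 1) and log2(TPM + 0.1), a replicate block, and leaving out each library. The 10 genes and all lists were chosen with earlier results of these data known. Of the listed genes 213 matched by symbol and 9 by RefSeq gene ID (assembly GRCz12tu, names only); hilpda and heph were not found. Named were all 10 genes, both lists of direct partners, and up to 4 genes per direction of each other list by adjusted p. Replicate libraries of a group differed by more than counting noise (chi-square per gene 1.95 to 10.8).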

Additional observations from a re-analysis of the deposited data

How the results depend on the processing

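Across 14 alternatives egln1b, egln2, egln3, vhl and hif1ab passed as higher and epas1b as lower, as did egln1a as higher in the 13 it entered (at least 5 CPM in 3 libraries removed it); hif1al passed in all but the TPM scales (0.11 on both). The ranges were 2.81 to 3.23 for egln3, 1.42 to 1.83 for egln2, 0.72 to 0.93 for egln1b, 0.78 to 1.16 for egln1a, 0.59 to 0.87 for vhl, 0.16 to 0.38 for hif1ab and -0.97 to -0.74 for epas1b. The number of all genes called was 4940 higher and 5362 lower (48.0% of calls higher), against 2611 higher on each TPM scale and 7872 and 7867 lower on log2(TPM + 1) and log2(TPM + 0.1) (24.9% higher on each), and 3362 higher and 6973 lower with library totals alone (32.5% higher). Glucose genes called lower were 5, and 8 with library totals alone and on both TPM scales. Hypoxia targets were 29 higher and 5 lower, against 26 and 7 on each TPM scale and 27 and 6 with library totals alone. The replicate numbers did not pair the libraries (correlation of deviations between same-numbered libraries -0.0679 to 0.00917, and 0 of 6 libraries correlated best with their own number); with the replicate block 4655 genes were higher and 5061 lower, against 4940 and 5362 without it, the 10 genes kept all 8 calls, and 30 hypoxia targets were higher.

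Values near 0 changed sign, the cause of which was not tested beyond the shift of all genes given above. With library totals alone, log2(TPM + 1) and log2(TPM + 0.1) they were -0.097, -0.14 and -0.16 for hif1aa, -0.014, -0.069 and -0.070 for epas1a, -0.034, -0.11 and -0.12 for ep300a, -0.020, -0.078 and -0.079 for cited4a, -0.085, -0.14 and -0.15 for p4htma, -0.012, -0.094 and -0.11 for vhll, -0.026, -0.084 and -0.085 for elob, and -0.059, -0.12 and -0.13 for eloca. On the TPM scales crebbpb was -0.035 and -0.036 and rbx1 -0.0036 and -0.0036. With at least 5 CPM in 3 libraries hif1aa was -0.024 and p4htma -0.013. With RLE factors, no filter and DESeq2 elocb was 0.0024, 0.0012 and 0.0050. Leaving out each library gave -0.0097 to 0.022 for hif1aa, -0.11 to 0.12 for p4htma, -0.15 to 0.15 for p4htmb, -0.15 to 0.25 for vhll, -0.0043 to 0.10 for eloca and -0.043 to 0.028 for elocb. Of the 50 other named genes 29 kept their side of the threshold and their direction throughout. Depth limits the precision of genes with few counts, such as egln1a.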

Other observations

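Some hypoxia-induced genes outside the naming rule were singled out after their values were seen. The ankyrin repeat gene ankrd37 averaged 21.6 ± 1.49 TPM with DAPT and 3.15 ± 0.773 TPM with DMSO, a log2 fold change of 2.94 ± 0.15. The leptin gene lepb averaged 12.1 ± 4.11 TPM with DAPT and 0.720 ± 0.384 TPM with DMSO (4.20 ± 0.40). Its DMSO libraries held only 2, 5 and 7 counts, against 55, 113 and 90 with DAPT, so the size of this change is imprecise. The duplicate lepa, with 10 to 20 counts per library, did not pass (0.23 ± 0.30). The vascular growth factor genes vegfaa and vegfab rose by 0.48 ± 0.08 and 0.95 ± 0.06, the adrenomedullin genes adma and admb by 0.83 ± 0.08 and 1.15 ± 0.08, the endothelin gene edn1 by 1.33 ± 0.10 and the erythropoietin gene epoa by 0.54 ± 0.12, while its receptor gene epor fell by 1.13 on the log2 scale. The adjusted p of these 8 rises was at most 0.00336 by edgeR's quasi-likelihood test. Among duplicates, cxcr4a rose by 1.06 ± 0.10 and cxcr4b fell by 0.35 on the log2 scale, and p4ha1a, at 0.13 ± 0.07, did not pass beside p4ha1b at 2.40 ± 0.07. The lactate exporter gene slc16a3b rose by 0.84 ± 0.07. In all 6 libraries its count was not whole, which was taken to mean shared reads. Its duplicate slc16a3a, at -0.17 ± 0.18, did not pass.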
